A study of Homo sapiens with 24 samples.

Results

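The replication-dependent histone genes supply the bulk of new histone protein while DNA is copied. They were taken here as the rows of the count table whose symbol is H1-1 to H1-5 or H2AC, H2BC, H3C or H4C followed by a number, with at least 24 counts in total over the 24 libraries. Of 65 symbols that match, 57 met the count threshold, out of 59251 genes in the table. They comprise 5 H1 linker genes, 13 H2A, 15 H2B, 12 H3 and 12 H4 genes. H2BC3 with 24 counts lay just inside the threshold and H2BC6 with 23 just outside, and 6 symbols had no count at all.

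RNA was measured in MCF10A, an established and non-tumorigenic line of breast epithelial cells, in a derivative called PM that the submitters describe as transformed by MYC and a derivative called PE that they describe as not transformed. Each derivative carried one of 3 short hairpins: hairpin A or hairpin B against CHD1, a chromatin remodeller that binds methylated histone H3 at active genes, or a hairpin against GFP as the control. The 6 groups, with 4 libraries each, were PM with hairpin A, hairpin B or the GFP hairpin, and PE with hairpin A, hairpin B or the GFP hairpin. Every culture, the GFP controls included, received doxycycline at 50 ng/ml for 72 h, so no group is free of the drug. The labels call the replicates biological without saying how they were separated, and each p-value therefore reflects only how far these libraries differ among themselves. Whether a hairpin line is 1 clone is not stated.

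Histones H2A, H2B, H3 and H4 form the nucleosome core and H1 binds the linker DNA between nucleosomes. Their replication-dependent genes lack introns in the coding part, are transcribed mainly in S phase, and end in a short stem-loop that the protein SLBP binds in place of a poly(A) tail. A minority of these transcripts is polyadenylated, in particular those that read past the stem-loop to a downstream poly(A) signal. The libraries here were made from poly(A)-selected RNA, so each level below is that of molecules that came through this selection, and total histone mRNA was not measured.

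The stem-loop is shown first because it is what separates these transcripts from other mRNAs. A 16-base hairpin was found in GENCODE v29 transcripts (GRCh38) of 24 of the 54 genes that could be matched there. Of the 30 matched genes without one, 29 have no transcript model of 760 bases or more. Many models of the genes without one hold little or nothing past the coding part, such as 381 bases for H2BC12 and 312 for H4C12. A stem-loop past the end of a model could not be found, so no match does not show that a gene lacks it. Genes with one can have short models too, such as 373 bases for H4C11 and 503 for H2AC13, so length alone does not separate them. The 6 paired bases on each side are in capitals and the 4-base loop is in lower case, and each line names the genes that carry the form.
H2AC6, H2BC18, H2BC21, H2BC8, H3C10, H3C14 and 5 others: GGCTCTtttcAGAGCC
H2BC4, H2BC5, H2BC7 and H3C8: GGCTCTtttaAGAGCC
H3C6: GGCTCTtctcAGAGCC
H2AC11: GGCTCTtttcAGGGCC
H4C11, H4C2, H4C5 and H4C8: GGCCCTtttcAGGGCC
H4C14, H4C15 and H4C9: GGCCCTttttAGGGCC
The H4 genes thus carry a stem that differs from that of most other classes, and the first form is shared by 11 genes of the H2A, H2B and H3 classes. In 18 genes at least 1 transcript model also has a poly(A) signal within its last 50 bases.

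The 150 bases upstream of 4 genes on which the results turn are printed next, from RefSeq (GRCh38.p14), since the calls of these genes differed between the hairpins or the lines. Capitals mark the CCAAT box (CCAAT), the TATA box (TATAA) and the core of the octamer motif (ATTTGCA), each searched on both strands.
H2AC18, chr1:149842751-149842900, minus strand: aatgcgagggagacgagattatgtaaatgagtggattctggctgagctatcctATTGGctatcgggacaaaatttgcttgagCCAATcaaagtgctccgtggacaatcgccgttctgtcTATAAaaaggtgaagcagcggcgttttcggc
H2BC12, chr6:27146859-27147008, minus strand: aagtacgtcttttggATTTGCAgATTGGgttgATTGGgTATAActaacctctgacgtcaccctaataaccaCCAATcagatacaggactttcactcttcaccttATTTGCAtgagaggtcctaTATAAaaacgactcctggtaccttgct
H2BC21, chr1:149886683-149886832, minus strand: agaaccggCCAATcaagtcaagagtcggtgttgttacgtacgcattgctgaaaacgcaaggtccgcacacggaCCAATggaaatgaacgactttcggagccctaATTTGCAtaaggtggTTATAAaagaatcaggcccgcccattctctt
H1-2, chr6:26056471-26056620, minus strand: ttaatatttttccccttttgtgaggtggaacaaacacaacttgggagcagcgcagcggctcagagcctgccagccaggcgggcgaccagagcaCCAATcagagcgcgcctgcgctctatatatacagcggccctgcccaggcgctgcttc
H2BC12 and H2BC21 hold the octamer core, which the factor OCT1 binds in H2B promoters, 46 bases before the start. H2AC18 and H1-2 do not hold these letters in this window. In H2BC21 the TATA letters overlap on the 2 strands. In the 250 bases upstream, the octamer core was found in 12 of 15 H2B, 9 of 12 H2A, 1 of 10 H3, 0 of 10 H4 and 0 of 5 H1 promoters in RefSeq, against 3.7% of all 27305 promoters. CCAAT was found in 44 of the 52 histone promoters matched (84.6%) and in 9021 of all 27305, and within the H4 class in 2 of 10. TATAA was found in 94.2% of the histone promoters and 19.6% of all. A match is a description of letters, not of binding.

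Total counts per library ran from 4.14 M to 93.3 M with a median of 49.5 M, and the histone genes together held 480 to 10284 counts per library. Among the libraries, 3 stood apart: replicate 1 of PE with the GFP hairpin was the shallowest, with 480 histone counts, replicate 4 of PM with hairpin A had the fewest histone genes with a count of its group, 34, and replicate 3 of PM with hairpin B had a count in 33137 genes, the most of all. CHD1 itself was at 27.6 to 34.3 CPM (counts-per-million, scaled by the TMM method) in PM with hairpin A, 22.2 to 33.8 CPM in PM with hairpin B and 84.9 to 95.3 CPM in PM with the GFP hairpin. In PE it was at 28.2 to 30.8 CPM with hairpin A, 23.6 to 30.2 CPM with hairpin B and 74.2 to 86.8 CPM with the GFP hairpin, so no CHD1 hairpin library reached a GFP library. MYC averaged 518 ± 27.4 CPM in PM and 275 ± 17.7 CPM in PE with the GFP hairpin (SD, n = 4 each). In PM it averaged 564 ± 28.2 CPM with hairpin A and 392 ± 12.3 CPM with hairpin B, where it fell (log2 fold change -0.40, SE 0.06, adjusted p = 3.58e-06, edgeR), and the part of this in the histone levels was not tested. The epithelial keratin KRT5 was at 559 to 1624 CPM over all libraries, the basal factor TP63 at no more than 1.35 CPM, and the T lymphocyte gene CD3E at no more than 0.0539 CPM. CD14, a monocyte gene, was at 20.1 to 24.1 CPM in PM with hairpin A, 10.4 to 12.2 CPM with hairpin B and 11.2 to 14.6 CPM with the GFP hairpin, and at 31.02 to 34.3 CPM in PE with hairpin A, 15.2 to 20.1 CPM with hairpin B and 15.1 to 24.2 CPM with the GFP hairpin. It rose with hairpin A in both lines, by 0.87 in PM and 0.77 in PE (log2, SE 0.12 each, edgeR). The epithelial cadherin CDH1 differed between the lines, at 15.9 to 30.98 CPM over the PM libraries and 0.138 to 13.8 CPM over the PE libraries. The fibroblast gene DCN was at 1.21 to 49.3 CPM in PM and 11.9 to 55.1 CPM in PE. Over all libraries COL1A1 reached 17.4 CPM, LUM 10.1, PDGFRB 2.599, PDGFRA 0.493 and COL1A2 0.351 CPM, all fibroblast genes. The endothelial gene PECAM1 was at 0.176 to 2.71 CPM in PM and 5.16 to 12.1 CPM in PE. The keratin KRT14 was at 13.9 to 19.6 CPM in PE with hairpin A and 0.3596 to 0.641 CPM with hairpin B. With the GFP hairpin in PE it was at 24.97 to 55.8 CPM. In PM it was at 0.541 to 2.27 CPM with either CHD1 hairpin and 3.02 to 10.96 CPM with the GFP hairpin. The part of these markers in the histone levels was not tested.

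Histone transcripts were scarce and uneven. The 57 genes held 117973 counts in all, and H4C15, H2BC12 and H2AC18 held 54.95% of them. The mean over the 24 libraries was 23.6 CPM for H4C15, 19.8 CPM for H2BC12 and 13.0 CPM for H2AC18. Next came H1-2 with 6.28 CPM, H2AC6 with 4.83 CPM, H2BC5 with 4.52 CPM, H4C14 with 3.39 CPM, H2BC21 with 3.27 CPM and H2BC4 with 3.24 CPM. The best expressed H3 gene, H3C6, averaged 2.07 CPM. In all, 14 genes averaged at least 1 CPM, and 43 less, of which 10 were under 0.1 CPM.

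**Figure D1:**
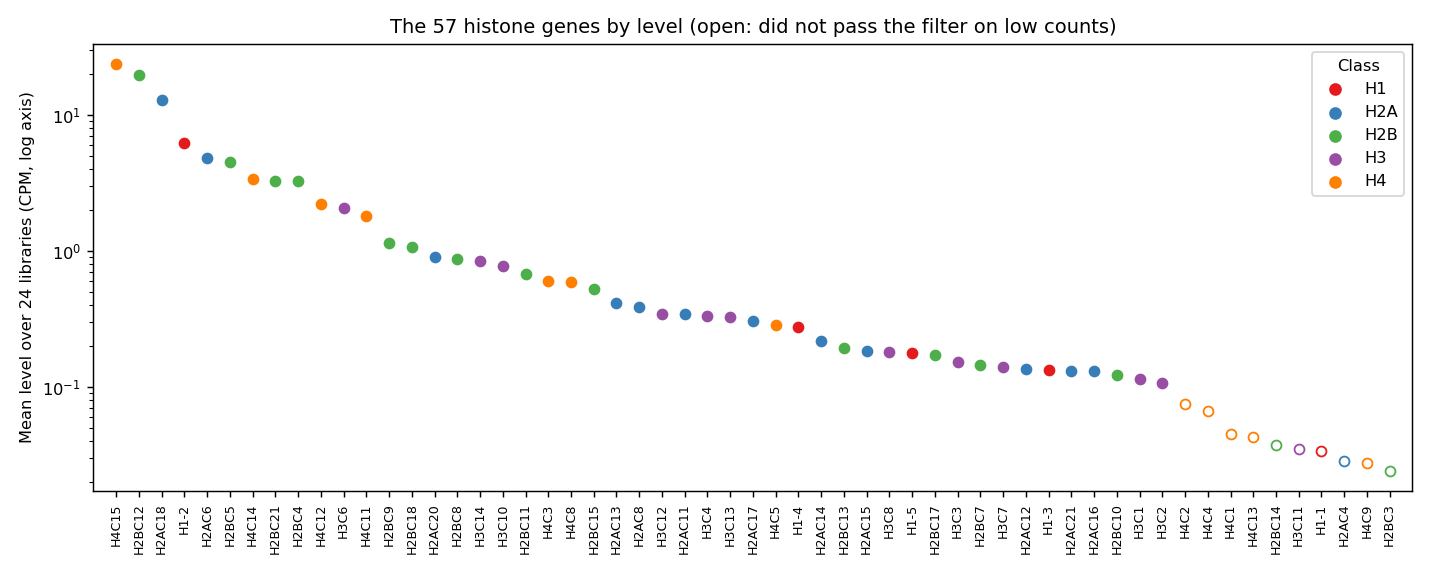
Mean level of each of the 57 histone genes over the 24 libraries, in CPM on a log axis, ordered by level and coloured by class; open points are genes that did not pass the filter on low counts. H4C15 at 23.6 CPM stands at one end, and the 10 open points lie under 0.1 CPM at the other.

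Per kilobase of the RefSeq gene span, which can be compared between genes whose span is a single short unit, H2AC18 led with 24.3 CPM per kb, ahead of H2AC6 with 9.32, H1-2 with 8.59, H4C14 with 8.56, H4C12 with 5.72 and H4C11 with 4.64 CPM per kb. Genes with a span over 1000 bases, namely H2BC12, H2BC18, H2BC21, H2BC4, H2BC5, H3C4, H3C6 and H4C15, were left out of this order. These 8 genes held 56.3% of the histone counts, and the other 49 held the rest. How many of their counts came from stem-loop-ended forms and how many from longer polyadenylated forms cannot be read from counts per gene. H2A and H2B genes often lie back to back, and 9 neighbouring pairs were found with 193 to 247 bases between them. Members of a pair could differ widely in counts, as H2BC12 had 21843 and its neighbour H2AC12 had 150. The span of H2BC12 is 8566 bases and that of H2AC12 457, so these counts are not per length. The strand of H2AC12 was not available.

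Some values are shared between copies. The 150 bases upstream of H4C14 and H4C15 are identical in RefSeq, and those of H4C11 and H4C12 differ at 2 positions. H2AC19 and H3C15, the near-identical copies of H2AC18 and H3C14, had no count and lie inside the span annotated for H4C15. The treatment of reads with several mapping positions, or in overlapping genes, is not stated, and the split of counts between these genes is uncertain.

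Of the 57 genes, 47 passed the filter on low counts and were tested: 4 H1, 12 H2A, 13 H2B, 11 H3 and 7 H4 genes. H1-1, H2AC4, H2BC14, H2BC3, H3C11, H4C1, H4C13, H4C2, H4C4 and H4C9 were not. Tests were edgeR's quasi-likelihood tests in 1 fit over all 24 libraries, two-sided, with Benjamini-Hochberg adjustment over the 20820 genes tested, and a gene is said to rise or fall only where the adjusted p was under 0.05. Log2 fold changes are given with their standard error (SE).

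The summed level of the 57 genes was 103 ± 5.45 CPM in PM with hairpin A, 98.0 ± 10.3 CPM in PM with hairpin B and 70.1 ± 2.66 CPM in PM with the GFP hairpin (SD, n = 4 each). The lowest PM library with a CHD1 hairpin stood at 83.8 CPM and the highest with the GFP hairpin at 73.7 CPM, so these groups did not overlap. In PE the sum was 110 ± 5.14 CPM with hairpin A, 115 ± 8.03 CPM with hairpin B and 114 ± 7.86 CPM with the GFP hairpin (SD, n = 4 each), and the ranges of all 3 groups overlapped. The ratio of group means, a CHD1 hairpin over the GFP hairpin, was 1.47 for A and 1.4 for B in PM, and 0.966 for A and 1.01 for B in PE. Without H4C15, H2BC12 and H2AC18 it was 1.2 for A and 1.47 for B in PM, and 0.823 for A and 1.04 for B in PE. The sums are descriptions with no test. In such bulk RNA, fewer cells in S phase and less histone RNA per cell cannot be told apart.

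**Figure D2:**
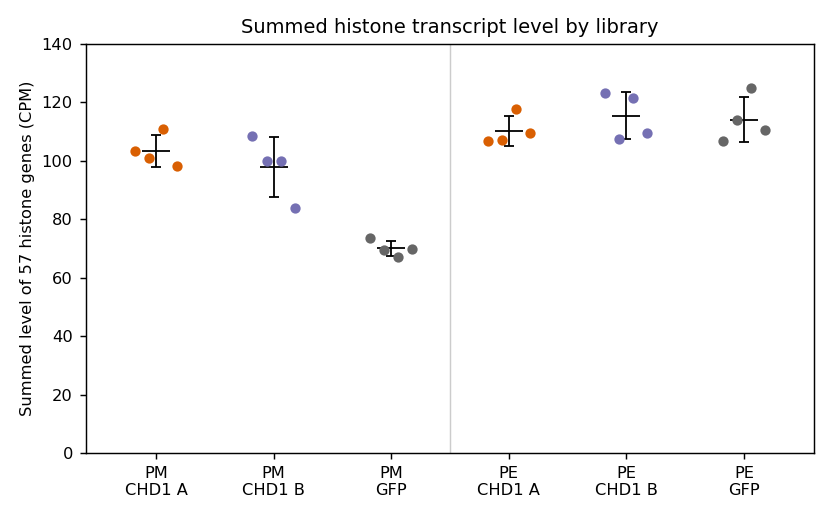
Summed level of the 57 histone genes in each library, in CPM, for PM and PE with hairpin A, hairpin B and the GFP hairpin; points are libraries, the long line is the mean and the bars are 1 SD (n = 4). The PM libraries with the GFP hairpin, at 67.3 to 73.7 CPM, lie below every other library.

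CHD1 hairpins in PM. The question is what CHD1 knockdown does to histone transcripts in the MYC-transformed derivative. With hairpin A, 6 of the 47 tested genes rose and none fell, and with hairpin B 8 rose and none fell. The 6 are H2AC18, H2BC12, H2BC18, H2BC5, H3C10 and H4C15, and the 8 are H1-2, H2AC18, H2BC11, H2BC18, H2BC21, H2BC5, H3C6 and H4C15. Of all genes tested, 27.8% passed with hairpin A (13.4% higher, 14.3% lower) and 28.1% with hairpin B (13.6% higher, 14.4% lower). The histone share was 12.8% with hairpin A and 17% with hairpin B, below the background for either direction and near that for a rise. At an unadjusted p under 0.05, 8 histone genes were higher and 0 lower with hairpin A, and 9 higher and 0 lower with hairpin B. The DESeq2 Wald test called 6 higher with hairpin A and 8 higher with hairpin B, with 0 lower. The share of all genes was not counted for either, so these counts are no result about the group.

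H2AC18, which encodes a core H2A protein and lies on chromosome 1, had 13.8, 11.3, 16.2 and 12.8 CPM in PM with hairpin A, 10.1, 8.97, 11.8 and 11.3 CPM in PM with hairpin B, and 6.09, 5.91, 6.57 and 6.16 CPM in PM with the GFP hairpin. Every CHD1 hairpin library was above every GFP library. Its log2 fold change was 1.13 (SE 0.14, adjusted p = 1.05e-07, edgeR) with hairpin A and 0.77 (SE 0.14, adjusted p = 5.31e-05) with hairpin B.

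H2BC5, an H2B gene on chromosome 6, had 3.97, 3.98, 5.09 and 5.70 CPM in PM with hairpin A, 5.68, 5.49, 5.19 and 2.46 CPM in PM with hairpin B, and 2.198, 1.51, 2.12 and 2.03 CPM in PM with the GFP hairpin. Replicate 4 of hairpin B was well below its group but still above all GFP libraries. The log2 fold change was 1.26 (SE 0.24) with each hairpin, with an adjusted p from edgeR of 8.85e-05 for A and 7.75e-05 for B.

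H4C15, the best covered histone gene, had 23.1, 23.5, 26.7 and 24.4 CPM in PM with hairpin A, 28.4, 25.9, 25.7 and 20.1 CPM in PM with hairpin B, and 16.8, 15.0, 17.0 and 16.4 CPM in PM with the GFP hairpin. The groups did not overlap. The log2 fold change was 0.58 (SE 0.11, adjusted p = 1.17e-04, edgeR) with hairpin A and 0.62 (SE 0.11, adjusted p = 5.17e-05) with hairpin B.

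H2BC18, an H2B gene on chromosome 1, had 1.25, 1.43, 1.72 and 1.14 CPM in PM with hairpin A, 1.16, 2.09, 1.32 and 1.19 CPM in PM with hairpin B, and 0.757, 0.509, 0.495 and 0.996 CPM in PM with the GFP hairpin. All CHD1 hairpin libraries were higher, by little in some. The log2 fold change was 1.02 (SE 0.38, adjusted p = 0.0440, edgeR) with hairpin A and 1.06 (SE 0.38, adjusted p = 0.0349) with hairpin B. Both calls were fragile. With hairpin A the call was lost without replicate 1, 2 or 3 of hairpin A or of the GFP hairpin (adjusted p up to 0.189 over the alternatives), and with hairpin B without replicate 2 or 3 of hairpin B or replicate 1, 2 or 3 of the GFP hairpin (up to 0.157).

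H2AC18, H2BC18, H2BC5 and H4C15 thus rose with both hairpins in PM, 4 of 47, where 6.46% of all genes tested rose with both, 6.89% fell with both and 13.3% passed with both in the same direction. The hairpins share the GFP libraries of their line, so this count gets no test.

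The remaining calls in PM belonged to 1 hairpin. H2BC12, the most abundant H2B transcript, had 29.3, 27.5, 23.6 and 24.5 CPM in PM with hairpin A, 17.7, 17.4, 11.9 and 11.3 CPM in PM with hairpin B, and 15.7, 16.4, 15.1 and 13.0 CPM in PM with the GFP hairpin. It rose with hairpin A by 0.80 on the log2 scale (SE 0.13, adjusted p = 1.42e-05, edgeR), while with hairpin B its libraries spread across the GFP range and the log2 fold change was -0.05 (SE 0.13, adjusted p = 0.861).

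H1-2, which encodes a linker histone, showed the opposite pattern of the hairpins, with 3.21, 3.61, 3.06 and 3.09 CPM in PM with hairpin A, 8.69, 9.42, 11.1 and 7.93 CPM in PM with hairpin B, and 4.76, 3.74, 3.29 and 4.59 CPM in PM with the GFP hairpin. Every hairpin B library was above every GFP library. The log2 fold change was 1.19 (SE 0.22, adjusted p = 7.88e-05, edgeR) with hairpin B and -0.33 (SE 0.23, adjusted p = 0.324) with hairpin A.

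H2BC21, an H2B gene on chromosome 1, had 1.51, 1.55, 1.89 and 2.18 CPM in PM with hairpin A, 4.13, 2.98, 3.95 and 3.61 CPM in PM with hairpin B, and 2.38, 1.49, 1.80 and 1.26 CPM in PM with the GFP hairpin. Hairpin B libraries stood apart on the high side, and hairpin A libraries overlapped the GFP libraries. It rose with hairpin B by 1.10 (log2, SE 0.23, adjusted p = 4.00e-04, edgeR) and had a log2 fold change of 0.06 (SE 0.24, adjusted p = 0.907) with hairpin A.

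H3C6, the best covered H3 gene, had 2.10, 1.84, 1.71 and 0 CPM in PM with hairpin A, 2.60, 2.12, 3.55 and 0.960 CPM in PM with hairpin B, and 0.541, 0.725, 0.780 and 0.874 CPM in PM with the GFP hairpin. Apart from the library at 0, all CHD1 hairpin libraries were above the GFP libraries. It rose with hairpin B by 1.65 (log2, SE 0.54, adjusted p = 0.0238, edgeR), a call lost without replicate 1 or 3 of hairpin B or replicate 1, 2 or 3 of the GFP hairpin (adjusted p up to 0.0907). With hairpin A the log2 fold change was 0.95 (SE 0.54, adjusted p = 0.221), and without replicate 4 of hairpin A, a library that stood apart, it was 1.36 with an adjusted p of 0.00286.

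H3C10 rose with hairpin A by 1.61 (log2, SE 0.60, adjusted p = 0.0437, edgeR), although its hairpin A libraries ran from 0.163 to 2.53 CPM and overlapped the 0.255 to 0.757 CPM of the GFP libraries. The call was lost without replicate 1 or 3 of hairpin A or replicate 2, 3 or 4 of the GFP hairpin (adjusted p up to 0.312). H2BC11 rose with hairpin B by 2.09 (log2, SE 0.61, adjusted p = 0.00888), with 0.438 to 2.44 CPM in PM with hairpin B and 0.163 to 0.509 CPM in PM with the GFP hairpin. These are the least abundant genes called, and H2BC11 at a mean of 0.676 CPM was the lowest of them.

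**Figure D3:**
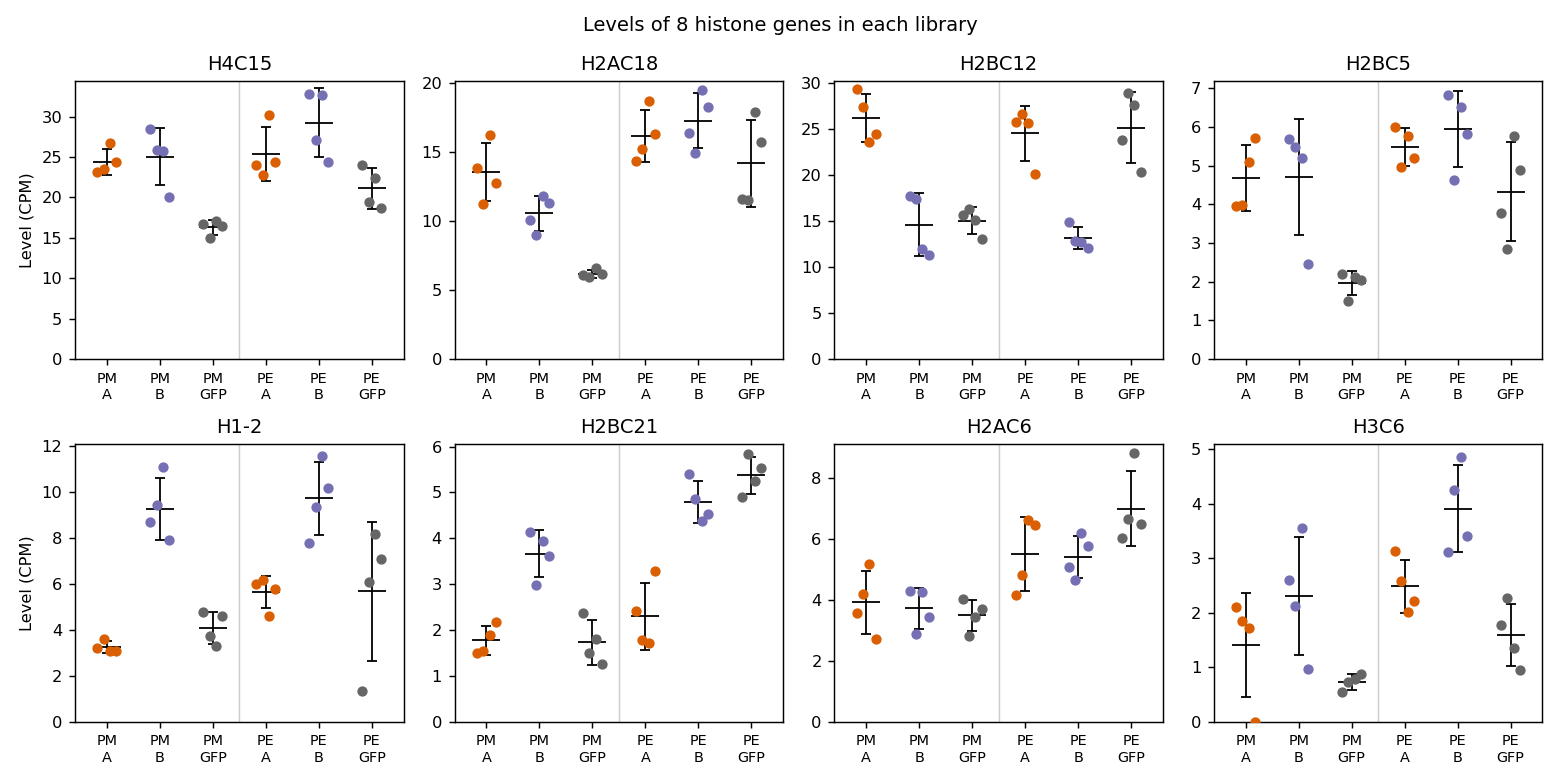
Levels of 8 histone genes in each library, in CPM, for PM and PE with hairpin A, hairpin B and the GFP hairpin; points are libraries, the long line is the mean and the bars are 1 SD (n = 4). H2AC18, H2BC5 and H4C15 are higher in PM with either CHD1 hairpin, whereas H2BC12 is lower and H1-2 and H2BC21 are higher with hairpin B than with hairpin A in both lines.

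CHD1 hairpins in PE. In the derivative that is not transformed, 0 of the 47 tested genes rose and 2 fell with hairpin A, and 2 rose and 1 fell with hairpin B. With hairpin A 4.26% of the histone genes passed, against 20.2% of all genes tested (10.9% higher, 9.33% lower), and with hairpin B 6.38% passed, against 26.8% (13.6% higher, 13.2% lower). At an unadjusted p under 0.05, 1 histone gene was higher and 4 were lower with hairpin A. With hairpin B 4 were higher and 1 was lower, and the share of all genes at that threshold was not counted. By the DESeq2 Wald test none passed with both hairpins in the same direction, and the share of all genes was not counted for that test. By edgeR none did either, where 12.3% of all genes did (6.75% higher, 5.58% lower). Without the shallow replicate 1 of the GFP hairpin the count with both was 1: H2AC13, whose 3 counts in that library equal 0.668 CPM, had log2 fold changes of 2.28 (adjusted p = 0.0418) with hairpin A and 2.78 (adjusted p = 0.00818) with hairpin B.

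With hairpin A, H2BC21 fell, with 2.41, 1.79, 1.71 and 3.28 CPM in PE with hairpin A against 4.90, 5.83, 5.24 and 5.52 CPM in PE with the GFP hairpin. No hairpin A library reached a GFP library. The log2 fold change was -1.22 (SE 0.24, adjusted p = 1.99e-04, edgeR). H2BC8, an H2B gene on chromosome 6, had 0.855, 0.469, 0.271 and 0.637 CPM in PE with hairpin A against 2.45, 1.29, 1.84 and 1.12 CPM in PE with the GFP hairpin, without overlap. It fell by 1.51 on the log2 scale (SE 0.49, adjusted p = 0.0254), a call lost without replicate 2 or 3 of hairpin A or replicate 1 or 3 of the GFP hairpin (adjusted p up to 0.0915). Only H2BC21 was then called without replicate 2 or 3 of hairpin A or replicate 3 of the GFP hairpin, and without replicate 1 of the GFP hairpin H2BC21 and H2AC13 were.

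With hairpin B, H2BC12 fell, with 14.9, 12.9, 12.7 and 12.1 CPM in PE with hairpin B against 23.8, 28.9, 27.7 and 20.3 CPM in PE with the GFP hairpin. The groups were well apart, and the log2 fold change was -0.94 (SE 0.14, adjusted p = 1.63e-06, edgeR). H4C15 rose by 0.49 (log2, SE 0.12, adjusted p = 0.00129), with 32.9, 27.1, 32.7 and 24.3 CPM in PE with hairpin B against 24.0, 19.5, 22.4 and 18.6 CPM in PE with the GFP hairpin. Its lowest hairpin B library was just above the highest GFP library. H1-2 rose by 0.65 (log2, SE 0.22, adjusted p = 0.0282), with 7.77, 9.35, 11.6 and 10.2 CPM in PE with hairpin B against 1.34, 6.09, 8.18 and 7.08 CPM in PE with the GFP hairpin. The low GFP value of 1.34 CPM came from the shallow library. Without it the log2 fold change was 0.45 (adjusted p = 0.0578), and the call was also lost without replicate 2 of the GFP hairpin or replicate 3 or 4 of hairpin B (adjusted p up to 0.1).

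H3C6 had 3.11, 4.26, 4.86 and 3.42 CPM in PE with hairpin B against 1.78, 2.27, 1.36 and 0.947 CPM in PE with the GFP hairpin, without overlap. Its log2 fold change was 1.36 (SE 0.55, adjusted p = 0.0727, edgeR), and the DESeq2 Wald test gave 1.33 with an adjusted p of 0.0262.

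The genes that rose with both hairpins in PM did not pass with hairpin A in PE. There, the log2 fold change was 0.15 (SE 0.14) for H2AC18, 0.30 (SE 0.24) for H2BC5, 0.28 (SE 0.12) for H4C15 and -0.27 (SE 0.40) for H2BC18. With hairpin B in PE it was 0.25 (SE 0.14) for H2AC18, 0.42 (SE 0.24) for H2BC5 and 0.17 (SE 0.40) for H2BC18, again without passing.

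Difference of the hairpin effect between PM and PE. A call in one line and not in the other does not show a difference, so the difference itself was tested, as the effect in PM minus the effect in PE. For hairpin A, 4 of the 47 genes passed, all with the more positive effect in PM, and for hairpin B 2 did, in the same direction. Of all genes, 6.66% passed for hairpin A (2.76% more positive and 3.9% more negative in PM) and 2.45% for hairpin B (1.47% more positive and 0.98% more negative in PM), beside 8.51% of the histone genes for A and 4.26% for B. With 4 and 2 genes these shares are near the background and are no result about the group. At an unadjusted p under 0.05 the counts were 10 for hairpin A and 4 for hairpin B, all more positive in PM. The share of all genes at that threshold was not counted, so these are no result about the group either. Both differences use the same GFP libraries.

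H2BC12 passed with both hairpins, with a difference on the log2 scale of 0.84 (SE 0.19, adjusted p = 0.00414, edgeR) for hairpin A and 0.90 (SE 0.19, adjusted p = 0.00426) for hairpin B. For hairpin A it is made of a rise in PM beside -0.04 in PE, and for hairpin B of -0.05 in PM beside a fall in PE. H2BC21 also passed with both, with a difference of 1.28 (SE 0.34, adjusted p = 0.0147) for hairpin A and 1.28 (SE 0.33, adjusted p = 0.0238) for hairpin B. The call for hairpin B was lost, leaving H2BC12 alone, without 1 of several libraries: in PM replicates 1 and 3 of hairpin B and 2 and 4 of the GFP control, in PE replicates 3 and 4 of hairpin B and 2 of the GFP control (adjusted p up to 0.0645).

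H2AC18 passed for hairpin A with 0.98 (SE 0.20, adjusted p = 0.00148, edgeR) and not for hairpin B, where the difference was 0.52 (SE 0.20, adjusted p = 0.204). H2BC8 passed for hairpin A with 2.28 (SE 0.69, adjusted p = 0.0371), a call lost without 1 of several libraries: in PM replicates 1, 2 and 4 of hairpin A and 1, 3 and 4 of the GFP control, in PE replicates 2, 3 and 4 of hairpin A and 1 and 3 of the GFP control (adjusted p up to 0.0864). H2BC5 had a difference of 0.96 (SE 0.33, adjusted p = 0.0817) for hairpin A and 0.84 (SE 0.33, adjusted p = 0.23) for hairpin B. It passed for hairpin A at 1.12 (adjusted p = 0.0408) once PE replicate 2 of the GFP hairpin was left out, and for hairpin B at 1.06 (adjusted p = 0.0438) without replicate 4 of hairpin B in PM. For H4C15, which rose in PM with both hairpins, the difference was 0.30 (SE 0.16, adjusted p = 0.313) for A and 0.13 (SE 0.16, adjusted p = 0.846) for B, so its effect was not shown to differ between the lines.

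PM against PE with the GFP hairpin. With the control hairpin, 0 of the 47 tested genes were higher in PM and 10 were lower, against 14.1% higher and 11.4% lower among all genes tested (25.5% in either direction). The histone share of 21.3% was below the total background and above that of the lower genes alone. At an unadjusted p under 0.05, 0 genes were higher and 11 lower, and the DESeq2 Wald test called 0 higher and 10 lower. The share of all genes was not counted for either, so these counts are no result about the group. The summed level was 0.614 of that in PE, and 0.606 without H4C15, H2BC12 and H2AC18. Between the lines with a CHD1 hairpin, the sum in PM was 0.937 of that in PE for hairpin A and 0.849 for hairpin B.

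H2BC21 had the largest fall of the 10, with 2.38, 1.49, 1.80 and 1.26 CPM in PM against 4.90, 5.83, 5.24 and 5.52 CPM in PE, a log2 fold change of -1.66 (SE 0.24, adjusted p = 1.86e-06, edgeR). H2AC18 had 6.09, 5.91, 6.57 and 6.16 CPM in PM against 11.6, 11.5, 17.9 and 15.7 CPM in PE, a log2 fold change of -1.23 (SE 0.14, adjusted p = 3.31e-08). In both genes every PM library was below every PE library.

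H2BC5 fell by 1.18 (log2, SE 0.24, adjusted p = 2.88e-04, edgeR), with 1.51 to 2.198 CPM in PM against 2.84 to 5.77 CPM in PE. H2AC6, an H2A gene on chromosome 6, fell by 1.03 (SE 0.21, adjusted p = 3.02e-04), with 4.04, 2.82, 3.42 and 3.68 CPM in PM against 6.01, 6.66, 8.80 and 6.47 CPM in PE. H2BC4, its neighbour at 245 bases, fell by 0.95 (SE 0.24, adjusted p = 0.00257), with 2.70, 1.78, 1.92 and 2.42 CPM in PM against 4.01, 3.87, 3.99 and 4.97 CPM in PE. None of these groups overlapped, and neither H2AC6 nor H2BC4 passed with a CHD1 hairpin in either line.

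H2BC12 fell by 0.75 (log2, SE 0.14, adjusted p = 5.97e-05, edgeR), with 13.0 to 16.4 CPM in PM against 20.3 to 28.9 CPM in PE. H4C14 fell by 0.86 (SE 0.25, adjusted p = 0.00931), with 1.86 to 2.52 CPM in PM against 3.43 to 4.65 CPM in PE. H4C15 had the smallest fall called, 0.35 (SE 0.12, adjusted p = 0.0218), with 15.0 to 17.0 CPM in PM against 18.6 to 24.0 CPM in PE. The H4C15 call was lost without replicate 3 of PE or replicate 2 of PM (adjusted p up to 0.0925). H2BC8 fell by 1.57 (SE 0.49, adjusted p = 0.0159) and lost its call without replicate 3 of PE (adjusted p = 0.0523). H1-2 fell by 0.61 (SE 0.23, adjusted p = 0.0442) and lost its call without replicate 2, 3 or 4 of PE or replicate 2 or 3 of PM (adjusted p up to 0.249).

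By class, the falls were 2 of 12 tested H2A genes, 5 of 13 H2B, 2 of 7 H4, 1 of 4 H1 and 0 of 11 H3 genes. A list of 5 genes taken from background knowledge as having a second, polyadenylated transcript, H2AC6, H2BC12, H2BC21, H2BC4 and H2BC5, was chosen with earlier results of these data known, and all 5 were among those that fell. It is not a full list. In GENCODE v29 other genes such as H2BC18 and H3C6 also have a model with a poly(A) signal at its end. H2BC18 and H3C6 did not pass here. The only H2BC12 model has no such signal, but at 381 bases it holds little or nothing past the coding part. A signal further downstream could not be found in it, so its absence there says nothing about H2BC12. Divergent neighbours did not always move together: H2AC20, 235 bases from H2BC21, had a log2 fold change of 0.15 (SE 0.42, adjusted p = 0.857), with 0.833 to 1.59 CPM in PM against 0.668 to 1.52 CPM in PE. The difference between the neighbours was not tested.

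Hairpin B against hairpin A. The CHD1 hairpins were also compared with each other, and the same 3 genes were called in both lines, H1-2, H2BC12 and H2BC21. In each line 2 genes were higher and 1 was lower with hairpin B, 6.38% of the 47 tested, against 26.3% of all genes in PM (12.7% higher, 13.5% lower) and 16.6% in PE (7.48% higher, 9.09% lower). H1-2 was higher with hairpin B by 1.52 (log2, SE 0.23, adjusted p = 3.23e-06, edgeR) in PM and by 0.79 (SE 0.22, adjusted p = 0.0105) in PE. H2BC21 was higher with hairpin B by 1.04 (SE 0.23, adjusted p = 8.28e-04) in PM and by 1.05 (SE 0.23, adjusted p = 0.00123) in PE. H2BC12 was lower with hairpin B, with a log2 fold change of -0.85 (SE 0.13, adjusted p = 7.62e-06) in PM and -0.90 (SE 0.13, adjusted p = 5.83e-06) in PE. In all 6 comparisons the libraries of the hairpins did not overlap. CHD1 itself was at 22.2 to 33.8 CPM in PM and 23.6 to 30.2 CPM in PE with hairpin B, and 27.6 to 34.3 CPM in PM and 28.2 to 30.8 CPM in PE with hairpin A. In PE, the level of H2BC12 with hairpin A (20.1 to 26.7 CPM) overlapped that with the GFP hairpin, and the level of H2BC21 with hairpin B (4.38 to 5.40 CPM) did so too.

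The makeup of the histone pool moved with these genes. H2B genes made up 39.2% of the summed level in PM with hairpin A, 32.0% with hairpin B and 35.5% with the GFP hairpin, and 36.3% in PE with hairpin A, 28.5% with hairpin B and 39.6% with the GFP hairpin. H1 genes made up 3.60% in PM with hairpin A, 10.1% with hairpin B and 6.99% with the GFP hairpin, and 5.46% in PE with hairpin A, 8.72% with hairpin B and 5.93% with the GFP hairpin. The H3 share was at most 6.45% in any group. H1-4 and H1-5, the H1 genes next in level, averaged 0.276 and 0.176 CPM and passed in no comparison, and neither did H3C14 at 0.850 CPM, H4C12 at 2.21 CPM or H2AC20 at 0.910 CPM.

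Because the filter on low counts can keep a gene for the group where it is high, all 57 genes were also tested with no filter other than the threshold of 24 counts, among 27077 genes. With hairpin A 5 rose and 0 fell in PM, and with hairpin B 7 rose and 0 fell, where 20.3% of all genes passed for A and 20.5% for B. H2BC18 was no longer called. In PE 0 rose and 2 fell with hairpin A, and 2 rose and 1 fell with hairpin B. There 14.6% of all genes passed for A and 19.8% for B. Between PM and PE with the GFP hairpin 0 were higher and 10 lower, where 18.3% of all genes passed. The median log2 fold change of the 57 genes was 0.20 with hairpin A and 0.32 with hairpin B in PM, -0.42 with hairpin A and -0.18 with hairpin B in PE, and -0.53 between PM and PE with the GFP hairpin. The median over all genes was 0.07 for hairpin B in PM and 0.00 for the other 4 of these comparisons. Calls came mostly from abundant genes: at least 1 comparison called 11 of the 14 genes that averaged 1 CPM or more, and 3 of the 43 below that level.

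Genes that act on histone mRNA were mixed. Of all genes tested, 27.8% passed with hairpin A and 28.1% with hairpin B in PM, and 20.2% with A and 26.8% with B in PE. Of 20 tested genes for transcription, 3′ processing and decay of histone mRNA, 4 rose and 3 fell with hairpin A in PM, 2 rose and 6 fell with hairpin B in PM, 5 rose and 1 fell with hairpin A in PE, and 2 rose and 6 fell with hairpin B in PE. For PE the total dropped to 3 called with hairpin A without its replicate 1, and with hairpin B to 4 without its replicate 1 and to 5 without replicate 4 of the GFP controls. LSM10 and LSM11, which belong to the U7 particle that cleaves histone pre-mRNA at the stem-loop, rose with both hairpins in both lines. LSM10 averaged 53.6 ± 4.18 CPM in PM with hairpin A, 37.7 ± 1.01 CPM in PM with hairpin B and 28.99 ± 4.03 CPM in PM with the GFP hairpin (SD, n = 4 each). In PE it averaged 35.4 ± 4.46 CPM with hairpin A, 32.7 ± 3.45 CPM with hairpin B and 26.2 ± 2.29 CPM with the GFP hairpin. Its log2 fold changes were 0.89 (A, PM), 0.38 (B, PM), 0.42 (A, PE) and 0.31 (B, PE), and the last was the weakest call, with an adjusted p of 0.0206 (edgeR).

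NPAT, the factor that cyclin E and CDK2 activate to switch on histone genes, fell in PM by 0.51 (log2, SE 0.12, adjusted p = 0.00129, edgeR) with hairpin A and by 0.40 (SE 0.12, adjusted p = 0.00988) with hairpin B. In PE its log2 fold change was -0.32 (adjusted p = 0.0633) with hairpin A and -0.25 (adjusted p = 0.139) with hairpin B. CASP8AP2, known as FLASH, a processing factor of the histone locus body, fell by 0.80 (SE 0.10) with hairpin A and 0.74 (SE 0.10) with hairpin B in PM and by 0.48 (SE 0.10) with hairpin B in PE. SLBP did not pass with any CHD1 hairpin. It was higher in PM than in PE with the GFP hairpin, by 0.45 (log2, SE 0.09, adjusted p = 3.00e-04), with 65.8 to 78.6 CPM in PM against 44.5 to 56.8 CPM in PE. That comparison had 5 of the 20 genes higher and none lower, where 14.1% of all genes were higher and 11.4% lower.

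Genes for entry into and progress through S phase, the time when histone genes are on, fell widely with the CHD1 hairpins. Of 22 tested, 15 fell and 1 rose with hairpin A in PM, 17 fell and 1 rose with hairpin B in PM, 14 fell and 2 rose with hairpin A in PE, and 16 fell and 1 rose with hairpin B in PE. Among all genes tested, 14.3% fell with hairpin A and 14.4% with hairpin B in PM, and 9.33% with A and 13.2% with B in PE. With both hairpins 13 fell in PM and 14 in PE, where 6.89% of all genes did in PM and 5.58% in PE. The median log2 fold change of the list was -0.40 with hairpin A and -0.47 with hairpin B in PM, and -0.37 with hairpin A and -0.45 with hairpin B in PE. RRM2, a subunit of the enzyme that makes deoxyribonucleotides, fell in PM by 0.75 with hairpin A and 0.74 with hairpin B. GMNN, which restrains replication licensing, and CCNA2, the S phase cyclin, also fell with each hairpin in each line. PCNA, the clamp of the replicative polymerases, rose by 0.62 with hairpin A and 0.68 with hairpin B in PM, and by 0.57 with hairpin A and 0.52 with hairpin B in PE. Between PM and PE with the GFP hairpin, 14.1% of all genes were higher and 11.4% lower. Of the 22, 11 were higher and 0 lower, with a median of 0.29. The counts moved by over 1.5 times without 1 library, to 7 higher without replicate 1 of PE or replicate 1 or 3 of PM, and to 6 without replicate 2 of PM. No gene of the list passed the test of a difference between the lines for either hairpin. Their part in the histone levels was not tested.

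Histones made outside S phase, from genes whose mRNAs have ordinary poly(A) tails, gave another picture. Of 12 such genes tested, 4 fell and 1 rose with hairpin A in PM, and 5 fell and 1 rose with hairpin B in PM. In PE 3 fell and 1 rose with hairpin A, and 5 fell and 1 rose with hairpin B. The share of all genes that fell was 14.3% (A) and 14.4% (B) in PM, and 9.33% (A) and 13.2% (B) in PE. H1-10, a linker histone, fell in all 4 comparisons (edgeR), by 1.22 with hairpin A and 1.07 with hairpin B in PM, and by 0.67 with hairpin A and 0.90 with hairpin B in PE. H2AZ1, which encodes the variant H2A.Z found at promoters, rose in all 4, by 0.55 with hairpin A and 0.43 with hairpin B in PM, and by 0.76 with hairpin A and 0.63 with hairpin B in PE.

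RNAs that have no poly(A) tail were counted as a measure of how strict the selection was. Of the 18 listed, 7 were tested. With hairpin A in PM 0 passed, with hairpin B in PM 1 rose, with hairpin A in PE 2 fell and with hairpin B in PE 1 rose. Their summed level was 41.7 to 59.3 CPM in PM with hairpin A, 48.3 to 66.6 CPM in PM with hairpin B and 32.3 to 61.7 CPM in PM with the GFP hairpin, so these groups overlapped. In PE it was 45.8 to 72.5 CPM with hairpin A, 41.8 to 101 CPM with hairpin B and 45.4 to 67.3 CPM with the GFP hairpin, also with overlap. Most of the sum was RN7SL1, at a mean of 49.5 CPM of the 58.1 CPM over all libraries. Without RN7SL1, PE libraries with the GFP hairpin averaged 12.4 CPM, against 6.47 CPM for hairpin A and 9.23 CPM for hairpin B. PM libraries with the GFP hairpin averaged 7.05 CPM, against 7.47 CPM for hairpin A and 9.14 CPM for hairpin B. The highest value, 19.6 CPM, was in replicate 1 of PE with the GFP hairpin, the shallowest library. Ranges still overlapped within each line. The share of counts from mitochondrial ribosomal RNA did differ. In PM that share was 0.415 to 0.567% with hairpin A, 0.424 to 0.488% with hairpin B and 0.216 to 0.341% with the GFP hairpin. In PE it was 0.374 to 0.440% with hairpin A, 0.429 to 0.586% with hairpin B and 0.272 to 0.439% with the GFP hairpin. The mean share was 0.466% with hairpin A, 0.457% with hairpin B and 0.269% with the GFP hairpin in PM. In PE it was 0.411% with hairpin A, 0.495% with hairpin B and 0.320% with the GFP hairpin. It was thus higher with the CHD1 hairpins in both lines. The histone sum over that with the GFP hairpin was 1.47 (A) and 1.4 (B) in PM, and 0.966 (A) and 1.01 (B) in PE. The part of this share in the histone levels was not tested.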

How the data were processed

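The table of counts per gene was read as the authors deposited it, with whole unscaled counts for 24 libraries. Per the labels' protocols, doxycycline-treated cultures gave DNase-treated RNA, from which poly(A) selection and a kit that keeps strand gave the libraries. Reads, per the submitters' processing notes, were checked with FastQC, trimmed with Trim Galore 0.4.0, aligned to GRCh38 with HISAT2 2.2.1 and counted with featureCounts. Annotation release, strand setting and the rule for multi-mapping reads were not found in the labels or the file, which leaves overlapping or near-identical histone genes uncertain.

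The 24 libraries entered 1 fit with a term for each of the 6 groups, made with edgeR 4.0.16 (R 4.3.3; TMM scaling, filterByExpr over the 6 groups leaving 20820 genes, robust quasi-likelihood fit and two-sided test, 18 residual degrees of freedom). P-values were adjusted by Benjamini and Hochberg within each of 9 contrasts, with a threshold of 0.05. Each SE is the size of the log2 fold change over the square root of the F statistic. The ± values are SDs of 4 libraries, and levels are CPM after TMM. The procedure was tested on simulated data. No library pair of a group agreed within sampling noise. The replicate numbers, set beside the libraries' deviations, did not pair them. The histone genes, the related lists and the tests were chosen with earlier results of these data known, so they are not independent evidence. Genes were named by a rule: the 3 highest of each class, in each comparison up to 5 called per direction, those called with both hairpins, those nearest the count threshold, and up to 4 called genes per direction of each related list. H2BC4, H2AC13 and SLBP were named after their values were seen. Genes under older symbols in the table (H2AW, H2BU1 and H4-16) are not among the 57. Alternatives were DESeq2 1.42.0 size factors, library sizes alone, no filter, a filter of 24 counts in total, the DESeq2 Wald test, the replicate number as a block, leaving out each library in turn and, chosen after seeing the data, leaving out the 3 libraries that stood apart.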

Additional observations from a re-analysis of the deposited data

Results flagged for a closer look

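Of 114 groups of 4 libraries, 7 held 1 library whose distance to the rest of its group was large for the group's range, by Dixon's criterion at the 95% level. Chance gives about 1 in 20 such groups. H2BC12 was at 20.1 CPM in replicate 4 of PE with hairpin A, against 25.7 to 26.7 CPM in the other libraries of the group. H2BC4 was at 4.97 CPM in replicate 4 of PE with the GFP hairpin, against 3.87 to 4.01 CPM. H2BC5 was at 2.46 CPM in replicate 4 of PM with hairpin B, against 5.19 to 5.68 CPM. H2BC8 was at 0.862 CPM in replicate 2 of PM with the GFP hairpin, against 0.427 to 0.446 CPM. H3C14 was low in a pair of groups, at 0.361 CPM in replicate 2 of PE with the GFP hairpin, against 0.668 to 0.730 CPM, and at 0.376 CPM in replicate 4 of PM with hairpin B, against 1.04 to 1.12 CPM. H4C12 was at 5.34 CPM in replicate 1 of PE with the GFP hairpin, the shallowest library, against 2.07 to 2.41 CPM.

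The effect of a CHD1 hairpin differed between PM and PE, by the test of that difference, for 4 histone genes. On the log2 scale, effect in PM minus effect in PE, the difference for hairpin A was 0.98 for H2AC18, 0.84 for H2BC12, 1.28 for H2BC21 and 2.28 for H2BC8, and for hairpin B it was 0.90 for H2BC12 and 1.28 for H2BC21. The SE and adjusted p of each are given with the comparison above. The H2BC8 call was lost in 14 of 23 alternatives. Among these were no filter (adjusted p = 0.0797, edgeR) and the filter of 24 counts in total (adjusted p = 0.05005). The H2BC21 call for hairpin B was lost in 7 of 23.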

How the results depend on the processing

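No call of a histone gene changed direction under any alternative run. The number of histone genes called stayed within 1.5 times of the reported one under every alternative except the following. With hairpin A in PE it was 1 with no filter, against 2. With hairpin B in PE it was 5 by the DESeq2 Wald test and 5 with the replicate block, against 3, the added genes being H2AC13 and H3C6. With both hairpins in PE it was 1 with the replicate block and 1 without the 3 libraries that stood apart, against 0. Leaving out each library in turn gave 4 to 7 genes for hairpin A in PM, 6 to 8 for hairpin B in PM, 1 to 2 for hairpin A in PE, 2 to 3 for hairpin B in PE, 7 to 10 for PM against PE, 3 to 5 and 1 to 3 for the line difference with hairpin A and with hairpin B, 3 to 4 for hairpin B against A in PM, 3 to 4 in PE, 3 to 5 with both hairpins in PM and 0 to 1 with both in PE. The replicate block is no pairing of cultures: the deviations of same-numbered libraries correlated by 0.0044 to 0.0885, none over 0.1. With the block, calls were gained for H4C15 with hairpin A in PE (0.28, adjusted p = 0.0312), for H2BC5 in the line difference for hairpin A (0.96, 0.0431) and for H2AC18 between hairpin B and A in PM (-0.36, 0.00977), and calls were lost for H2BC18 (1.00, 0.0612) and H3C10 (1.39, 0.0687) with hairpin A in PM. Other scalings moved the median log2 fold change of all genes by at most 0.07. As to depth, 43 of the 57 genes averaged under 1 CPM, and the shallowest library held 480 histone counts. What depth alone would allow to be called was not tested.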
